A study of Mus musculus with 78 samples.

Results

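The serpins are a family of proteins that share one fold, and most of them inhibit serine proteases by acting as a bait that traps the enzyme in an inactive complex. The mouse liver secretes many of them into plasma, where they restrain clotting, fibrinolysis, complement and neutrophil proteases, while others carry hormones without inhibiting a protease and the clade B members act inside cells. Here the family was defined as all genes whose only symbol in the array's probe table begins with Serpin, which gave 48 genes of 19938, with 1 probe set per gene, the one with the highest mean where there were several (no member had several). Of these 48 genes, 17 had a mean above the median of all values (5.54 on the log2 scale) and 31 lay below it, so 35.4% of the family was above the median, against 57.0% of all genes. Serpin genes that share their probe sets with another symbol, or that carry another symbol such as Agt, are no members.

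The arrays measured liver RNA of 78 female BALB/c mice, 1 Affymetrix array per mouse, in 18 groups. In the age series, Npc1-/- mice of the line BALB/cNctr-Npc1m1N/J and their Npc1+/+ littermates were taken at 6 ages between 1 and 11 weeks, 2 weeks apart, with 4 mice per genotype and age. Npc1 encodes a late endosomal and lysosomal cholesterol transporter, and mice that lack it in every cell model Niemann-Pick disease type C. In the 12-week set, all mice were Npc1+/+ BALB/cJ females, 5 per group: Npc1 antisense oligo, control antisense oligo, Npc1 oligo with N-acetyl-cysteine (NAC), control oligo with NAC, fasted overnight, and untreated. Oligos and NAC, an antioxidant, were given for 4 weeks from 8 weeks of age, and the oligo groups carry an intact Npc1 gene. The labels name each array a biological replicate and give no litter, injection batch or array batch. A difference below is a difference of group means on the log2 scale with its standard error from limma, and a gene is said to rise or fall only where its Benjamini-Hochberg adjusted p over all genes tested was under 0.05. The liver was measured in bulk, so fewer cells of a type and less RNA per cell cannot be told apart.

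The targeted gene bore out the labels in direction. Its group means at the 6 ages ran between 8.10 and 8.78 in Npc1-/- liver, against 9.26 and 10.27 in Npc1+/+ liver, and Npc1 averaged 7.25 with the Npc1 oligo against 10.22 with the control oligo, and 7.11 against 9.19 with NAC (each of these 8 differences had an adjusted p under 0.05 by limma). With NAC the control oligo group was itself lower in Npc1 than without it (difference -1.03, SE 0.15, adjusted p = 6.05e-05). All 10 hepatocyte markers listed were above the median of all values. A list of 14 pancreas genes averaged 8.36 and 8.34 in a pair of Npc1+/+ mice at 3 weeks, against 4.98 and 4.92 in the other pair, and a list of 12 skeletal muscle genes averaged 8.87 in 1 Npc1-/- mouse at 1 week, against at most 5.65 in the other 3.

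By role the 17 serpins above the median were 5 of 6 inhibitors of coagulation, fibrinolysis and complement, both hormone carriers, 2 of 3 alpha-1-antitrypsin paralogs, 1 of 3 genes of the Serpina3 group, 5 of 10 other secreted or endoplasmic reticulum serpins, and 2 of 24 clade B genes. In order of their mean over the 78 arrays they were Serpinf2, Serpina3n, Serpinc1, Serping1, Serpina6, Serpina1c, Serpind1, Serpinf1, Serpina11, Serpina10, Serpina7, Serpinb6a, Serpina1d, Serpinh1, Serpinb8, Serpine3 and Serpina4-ps1. The first 14 were above the median on all 78 arrays, Serpine3 on 77, Serpinb8 on 63 and Serpina4-ps1 on 24. At the border, Serpina4-ps1 had a mean of 5.60 just inside, and Serpinb9 (5.42) and Serpinb1a (4.72) lay just outside. Of the 31 genes below the median, 29 did not pass it on any array; they are Serpina1f, Serpina3a, Serpina3b, Serpina5, Serpina9, Serpina12, Serpina16, Serpinb1b, Serpinb1c, Serpinb2, Serpinb3a, Serpinb3c, Serpinb3d, Serpinb5, Serpinb6b, Serpinb6c, Serpinb6d, Serpinb6e, Serpinb7, Serpinb9b, Serpinb9c, Serpinb9d, Serpinb9e, Serpinb10, Serpinb11, Serpinb12, Serpinb13, Serpini1 and Serpini2. In the RefSeq gene table, 14 members lie on chromosome 12 and 7 of these were above the median, 13 lie on chromosome 13 with 1 above it, and 12 lie on chromosome 1.

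Promoter windows from RefSeq (build GRCm38.p6, 250 bases before to 50 after a transcription start, 300 bases in all) were at hand for 13 of the 17 genes and not for Serping1, Serpina6, Serpina10 and Serpina4-ps1. A motif in a window is given as a description, not as a site, and the motifs were chosen after the windows had been searched. They were GTTAAT, part of the palindrome recognised by the liver factor HNF1, found on either strand in 7.1% of 32851 windows; TATAAA, the TATA box, in 13.62%; and TTCNNNGAA, the core of sites for STAT factors, in 8.3%. Capitals mark these motifs. The windows of Serpina1c (chr12:103904901-103905200, minus strand) and Serpina1d (chr12:103773584-103773883, minus strand) are shown because both paralogs fell in Npc1-/- liver; they share 85.2% of 311 aligned positions, and each holds 1 GTTAAT.
Serpina1c: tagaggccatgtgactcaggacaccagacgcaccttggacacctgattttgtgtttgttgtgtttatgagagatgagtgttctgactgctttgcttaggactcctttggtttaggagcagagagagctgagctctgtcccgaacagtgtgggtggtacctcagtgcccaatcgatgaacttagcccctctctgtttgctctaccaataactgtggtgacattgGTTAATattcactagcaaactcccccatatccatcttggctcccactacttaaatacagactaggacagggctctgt
Serpina1d: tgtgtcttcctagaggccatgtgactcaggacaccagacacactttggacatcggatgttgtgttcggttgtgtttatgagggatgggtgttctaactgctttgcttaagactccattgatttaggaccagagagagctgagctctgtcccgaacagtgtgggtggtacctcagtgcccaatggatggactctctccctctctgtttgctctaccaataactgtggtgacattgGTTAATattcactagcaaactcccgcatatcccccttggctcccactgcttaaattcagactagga

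The window of Serpina7 (chrX:139085170-139085469, minus strand), the gene that moved most with NAC, holds GTTAAT and TATAAA. Those of Serpina11 (chr12:103989894-103990193, minus strand), which fell in Npc1-/- liver, and Serpinb6a (chr13:34002745-34003044, minus strand), which rose, hold TTCNNNGAA once and 2 times. Each of these 3 genes has 2 windows in the table, and the first by position with the motif is shown. Among the 13 genes, GTTAAT was also found in Serpinb8, and TATAAA and TTCNNNGAA in no further gene.
Serpina7: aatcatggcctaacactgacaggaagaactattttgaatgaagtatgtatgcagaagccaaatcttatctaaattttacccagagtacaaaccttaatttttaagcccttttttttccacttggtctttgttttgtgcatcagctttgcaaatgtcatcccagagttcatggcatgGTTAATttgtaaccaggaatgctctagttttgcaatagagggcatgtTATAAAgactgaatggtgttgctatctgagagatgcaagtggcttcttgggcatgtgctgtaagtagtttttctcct
Serpina11: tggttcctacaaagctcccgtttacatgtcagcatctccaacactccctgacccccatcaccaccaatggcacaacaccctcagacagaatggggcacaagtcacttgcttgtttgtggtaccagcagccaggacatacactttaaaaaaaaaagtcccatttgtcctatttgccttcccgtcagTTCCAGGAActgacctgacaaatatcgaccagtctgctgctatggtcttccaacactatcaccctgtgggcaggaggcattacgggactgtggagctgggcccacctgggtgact
Serpinb6a: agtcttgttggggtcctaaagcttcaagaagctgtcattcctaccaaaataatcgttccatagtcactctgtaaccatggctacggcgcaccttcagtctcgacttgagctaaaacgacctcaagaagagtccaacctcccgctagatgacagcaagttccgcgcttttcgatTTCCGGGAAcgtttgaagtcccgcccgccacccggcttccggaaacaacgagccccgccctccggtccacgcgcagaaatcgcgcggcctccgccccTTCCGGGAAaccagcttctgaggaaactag

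Over the 18 groups, the mean of a gene varied least for Serpine3 (by 0.35) and Serpinc1 (by 0.42) and most for Serpina4-ps1 (by 4.46, which may be a lower bound since its lowest group lay below the median of all values), Serpina7 (by 3.52), Serpinb6a (by 2.56), Serpina6 (by 2.20) and Serpina1c (by 2.16). Npc1-/- liver at 11 weeks was the lowest of the 18 groups for 10 of the 17 genes (Serpinf2, Serpinc1, Serping1, Serpina6, Serpina1c, Serpind1, Serpinf1, Serpina11, Serpina1d and Serpinh1) and the highest for Serpinb6a. The share of all genes that were lowest in this group was not counted, so the 10 are a description. In the 11-week genotype comparison 20.5% of all genes tested were lower and 18.8% higher.

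**Figure D1:**
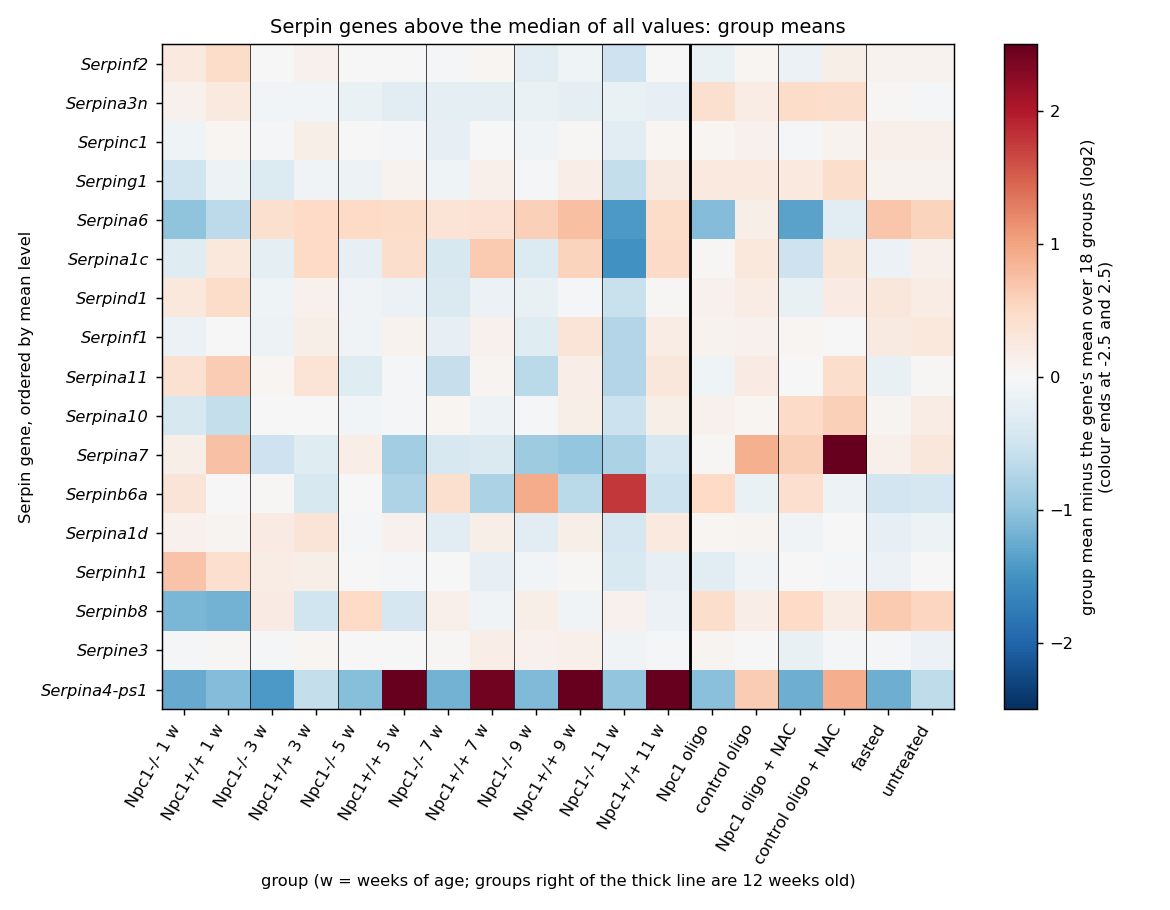
Group means of the 17 Serpin genes above the median of all values (rows) in the 18 groups (columns), each as the difference from that gene's mean over the groups in log2 units, with red for higher and blue for lower. Npc1-/- liver at 11 weeks is blue for most secreted serpins and red for Serpinb6a, and Serpina4-ps1 is red in Npc1+/+ liver from 5 weeks on and in both control oligo groups.

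More members were lower than higher in Npc1-/- liver at 11 weeks. Of 18 members tested (the 17 and Serpinb1a), none rose and 1 fell at 1 week, while 5.69% of all genes tested passed the threshold (2.91% higher and 2.78% lower). At 3 weeks 2 rose and 4 fell, against 15.7% of all genes (8.9% higher, 6.84% lower), and at 5 weeks 3 rose and 3 fell, against 12.6% (9.69% higher, 2.88% lower). At 7 weeks 1 rose and 8 fell, against 25.3% (14.3% higher, 11% lower), and at 9 weeks 1 rose and 7 fell, against 33.2% (17.6% higher, 15.5% lower). At 11 weeks 1 rose and 12 fell, against 39.3% of all genes (18.8% higher, 20.5% lower). The median difference of the 18 members was -0.16, -0.15, -0.02, -0.17, -0.15 and -0.62 at these ages, against -0.02 to 0.01 over all genes tested. Of the members tested, Serpina4-ps1 and Serpinb1a passed the filter on low values through Npc1+/+ mice alone, Serpinb1a through 4 of them (at 1, 7 and 11 weeks). The filter thus favoured genes lower in Npc1-/- liver, and the calls of these genes support nothing about the members. Both are counted among the calls at 7, 9 and 11 weeks, over the 6 ages and in the F test below. Serpina4-ps1 is also counted at 5 weeks. The members' genotype difference varied between ages in 15 of 18 by a moderated F test, against 27.7% of all genes. The mean difference over the 6 ages was positive in 2 called members and negative in 11, where 52.6% of all genes passed (26% higher, 26.6% lower).

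Serping1, the C1 inhibitor that restrains complement and plasma kallikrein, was the member that fell at every age. Its 4 values in Npc1-/- liver were 11.46, 11.63, 11.35 and 11.49 at 1 week, against 11.73, 11.86, 11.91 and 11.94 in Npc1+/+ liver, and 11.40, 11.45, 11.36 and 11.29 at 11 weeks, against 12.18, 12.25, 12.33 and 12.11. At both ages every Npc1-/- mouse was below every Npc1+/+ mouse. The difference was -0.37, -0.26, -0.22, -0.23, -0.22 and -0.84 at 1, 3, 5, 7, 9 and then 11 weeks (SE 0.07, adjusted p = 0.00058, 0.0115, 0.0385, 0.0151, 0.018 and 3.5e-13). The calls at 5, 7 and 9 weeks were lost on leaving out some single mice, with adjusted p up to 0.149, 0.0641 and 0.0694. Without the Npc1-/- mouse with muscle signal the 1-week difference was -0.33 (adjusted p = 0.00696), and without the pair of Npc1+/+ 1-week mice that the labels number apart it was -0.31 (adjusted p = 0.0559), so this call rests in part on that pair.

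All 5 tested inhibitors of coagulation, fibrinolysis and complement fell at 11 weeks, with differences of -0.32 to -0.84, where 20.5% of all genes were lower. Serpinc1, or antithrombin, which inhibits thrombin and factor Xa, was at 11.86, 11.73, 11.72 and 11.69 in Npc1-/- liver and at 12.02, 12.10, 12.08 and 12.07 in Npc1+/+ liver at 11 weeks (difference -0.32, SE 0.05, adjusted p = 3.71e-06). Serpind1, heparin cofactor II, was at 11.32, 11.09, 10.92 and 10.78 in Npc1-/- liver, against 11.57, 11.71, 11.52 and 11.60 (-0.57, SE 0.09, adjusted p = 3.96e-07). The groups did not overlap for either gene. Serpinf2, or alpha-2-antiplasmin, the main inhibitor of plasmin, was at 11.88, 11.70, 11.57 and 11.46 in Npc1-/- liver, against 12.11, 12.34, 11.97 and 12.21 in Npc1+/+ liver (-0.51, SE 0.09, adjusted p = 5.91e-06). Serpina10, which inhibits factor Xa together with protein Z, was at 8.82, 8.76, 8.52 and 8.32 in Npc1-/- liver, against 9.23, 9.42, 9.42 and 9.11 (-0.69, SE 0.11, adjusted p = 2.34e-06). Again no Npc1-/- mouse reached the lowest Npc1+/+ mouse. Before 11 weeks, Serpind1, Serpinf2 and Serpina10 did not pass the threshold at any age, and Serpinc1 fell at 3 weeks (-0.18, adjusted p = 0.0145) and 7 weeks (-0.21, adjusted p = 0.00259). Without the pair of Npc1+/+ mice with pancreas signal, the 3-week value of Serpinc1 was -0.16 (adjusted p = 0.133), and without 1 Npc1-/- mouse it was -0.16 (adjusted p = 0.0501).

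Serpina1c, one of the mouse paralogs of alpha-1-antitrypsin, the main plasma inhibitor of neutrophil elastase, fell at 3 weeks and at every later age. In Npc1-/- liver at 11 weeks it was at 10.002, 10.37, 10.16 and 10.02, against 11.80, 12.19, 12.64 and 11.89 in Npc1+/+ liver, with no overlap. The difference was -0.58, -0.71, -0.63, -1.06, -0.89 and -1.99 at the 6 ages (SE 0.18), and it passed the threshold at all but 1 week (adjusted p = 0.0507 at 1 week and 2.83e-12 at 11 weeks). At 11 weeks its level was 3.97 times lower. The 5-week call was lost on leaving out any of 3 single mice (adjusted p up to 0.0683). Serpina1d, with a lower signal, showed smaller differences of -0.42, -0.42 and -0.66 at 7, 9 and 11 weeks (SE 0.13, adjusted p = 0.0135, 0.0117 and 7.08e-05) and none past the threshold earlier. Its 11-week values were 6.39, 6.45, 6.43 and 6.62 in Npc1-/- liver, against 6.77, 7.33, 7.48 and 6.93 in Npc1+/+ liver, which did not overlap; its 9-week call was lost on leaving out either of 2 single mice. These paralogs are near copies, so how much signal each probe set takes from the others is unknown. Both probe sets that list several genes from Serpina1a to Serpina1e were also lower in Npc1-/- liver at 11 weeks, with means of 11.51 ± 0.08 against 12.39 ± 0.29 and 12.43 ± 0.12 against 13.14 ± 0.22 (SD, n = 4; not part of the test).

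**Figure D2:**
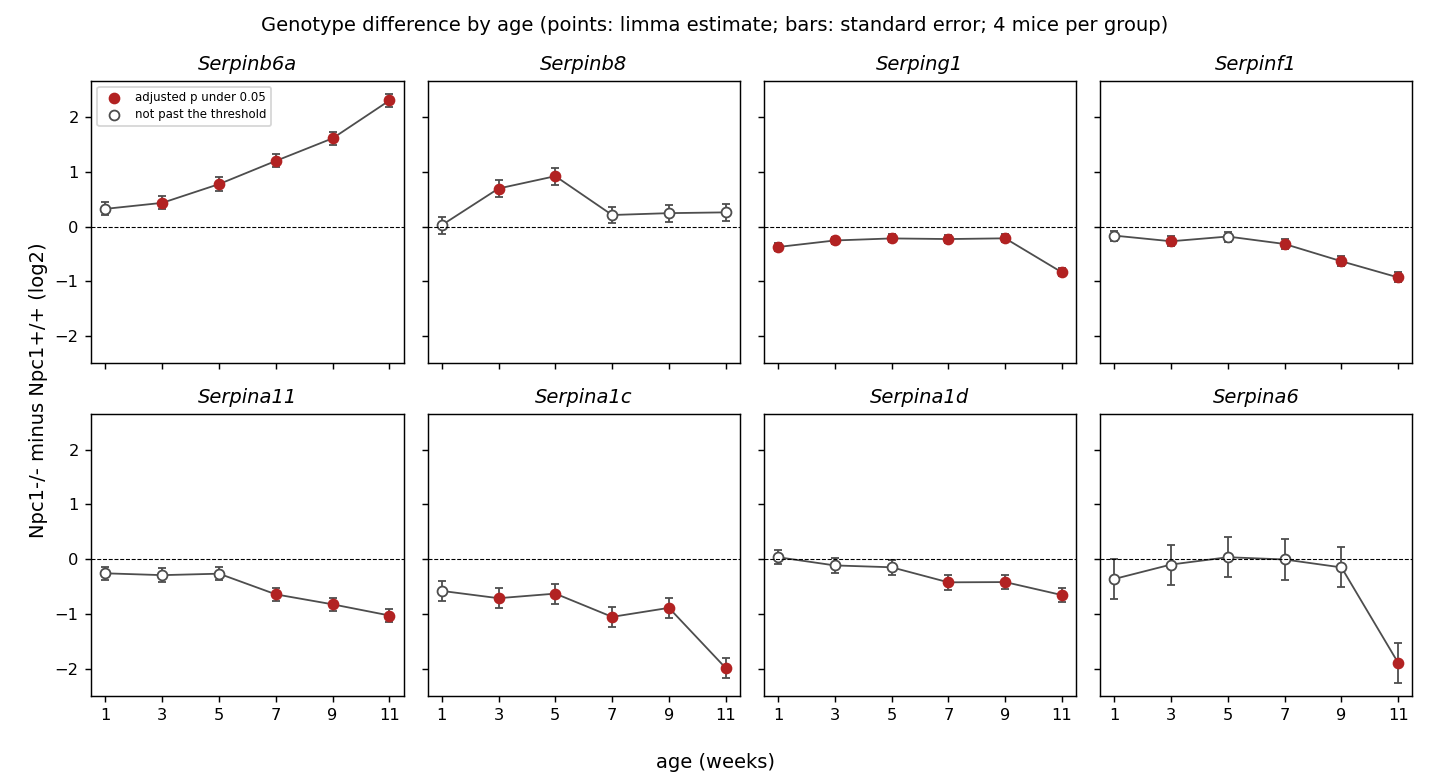
Npc1-/- minus Npc1+/+ difference (log2, vertical axis) against age in weeks for 8 Serpin genes, with limma estimates as points and standard errors as bars; filled red points had an adjusted p under 0.05. Serpinb6a climbs to 2.30 at 11 weeks, Serpinb8 peaks at 0.92 at 5 weeks, and the 6 secreted serpins have their lowest point at 11 weeks.

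The hormone carriers differed from each other. Serpina6, or corticosteroid-binding globulin, was at 11.59, 11.08, 10.30 and 8.30 in Npc1-/- liver at 11 weeks, against 12.48, 12.34, 12.30 and 11.74 in Npc1+/+ liver. The Npc1-/- mice spread over more than 3 log2 units, and all 4 lay below the Npc1+/+ mice. The difference was -1.90 (SE 0.37, adjusted p = 3.83e-05), or 3.73 times lower, and it was -1.23 without the lowest mouse (adjusted p = 0.000659). This SE uses 1 spread pooled over all groups of the age series, so it does not reflect the wider spread of these Npc1-/- mice. At 1 to 9 weeks the difference of Serpina6 ran between -0.36 and 0.03, with no adjusted p under 0.05. Serpina7, or thyroxine-binding globulin, passed the threshold at 5 weeks and at no other age. It was then at 8.32, 8.55, 9.33 and 8.58 in Npc1-/- liver, against 8.82, 7.55, 7.17 and 7.11 in Npc1+/+ liver (difference 1.03, SE 0.29, adjusted p = 0.0128). These groups overlapped through 1 Npc1+/+ mouse, and the call was lost on leaving out any of 3 single mice (adjusted p up to 0.0856).

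Among the other secreted serpins, Serpinf1, or pigment epithelium-derived factor, and Serpina11 fell further at later ages. Serpinf1 was at 10.48, 10.51, 10.05 and 10.15 in Npc1-/- liver at 11 weeks, against 11.11, 11.31, 11.31 and 11.17 in Npc1+/+ liver, with no overlap. Its difference was -0.27, -0.32, -0.64 and -0.93 at 3, 7, 9 and 11 weeks (SE 0.09, adjusted p = 0.0369, 0.00694, 3.46e-07 and 1.54e-11), and the 3-week call was lost on leaving out any of 4 single mice. Serpina11 was at 9.48, 9.41, 9.15 and 8.83 in Npc1-/- liver at 11 weeks, against 9.88, 10.31, 10.52 and 10.29 in Npc1+/+ liver. Its groups did not overlap at any of the 6 ages, and the difference passed the threshold at 7, 9 and 11 weeks (-0.64, -0.83 and -1.03, SE 0.12, adjusted p = 5.85e-05, 5.98e-07 and 2.34e-09). Serpinh1, or Hsp47, the collagen chaperone of the endoplasmic reticulum, and Serpine3 did not pass at any age, with differences of -0.16 to 0.28 and -0.14 to -0.02. Serpina3n, a mouse relative of antichymotrypsin and an acute-phase gene, did not pass either (-0.15 to 0.09, SE 0.08).

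Serpina4-ps1, whose symbol marks it as a pseudogene, had a pattern of its own. At 1 and 3 weeks it was low in both genotypes, with means of 4.37 and 4.20 in Npc1-/- liver and 4.56 and 5.04 in Npc1+/+ liver. From 5 weeks on it stayed low in Npc1-/- liver and was high in Npc1+/+ liver. At 5 weeks the Npc1-/- mice had 4.72, 4.58, 4.63 and 4.40, against 7.07, 8.75, 8.64 and 10.17 in Npc1+/+ mice. At 11 weeks they had 4.88, 4.84, 4.33 and 4.57, against 7.29, 7.84, 10.41 and 8.72. No Npc1-/- mouse passed the median of all values at any age, and the Npc1+/+ mice spread widely, with an SD of 1.27 to 1.88 at 5 to 11 weeks. The difference was -4.08, -3.59, -4.01 and -3.91 at 5, 7, 9 and 11 weeks (SE 0.58). These values are given as a description because the gene passed the filter through Npc1+/+ mice alone. The Npc1-/- values lie below the median of all values and the table carries no detection calls, so the sizes of these differences may be lower bounds.

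**Figure D3:**
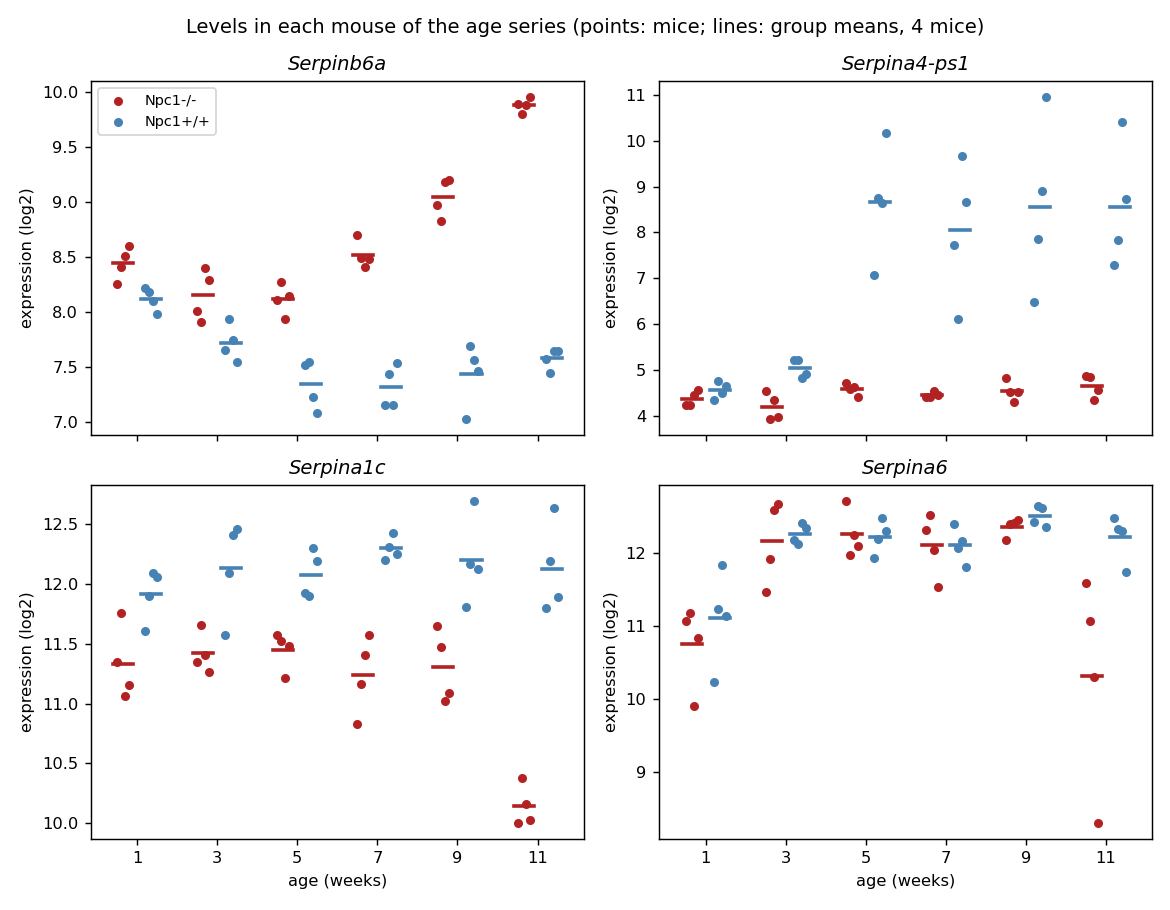
Log2 level in each mouse (points) and group mean (lines, 4 mice) against age in weeks for Serpinb6a, Serpina4-ps1, Serpina1c and Serpina6, with Npc1-/- left of Npc1+/+. Serpinb6a separates upward in Npc1-/- liver, Serpina4-ps1 stays under 5 in every Npc1-/- mouse, and Serpina6 spreads down to 8.30 in the 11-week Npc1-/- mice.

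Serpinb6a, an intracellular serpin that inhibits cathepsin G and other serine proteases, was the member that rose most. In Npc1-/- liver it averaged 8.44, 8.15, 8.12, 8.52, 9.05 and 9.88 at 1, 3, 5, 7, 9 and then 11 weeks, against 8.12, 7.72, 7.34, 7.32, 7.43 and 7.58 in Npc1+/+ liver. At 11 weeks the Npc1-/- mice had 9.89, 9.80, 9.88 and 9.95, against 7.57, 7.45, 7.65 and 7.65 in Npc1+/+ mice. The genotypes did not overlap at any age but 3 weeks. The difference was 0.32, 0.43, 0.77, 1.20, 1.61 and 2.30 (SE 0.12), which passed from 3 weeks on (adjusted p = 0.112, 0.0101, 5.09e-06, 6.8e-11, 6.63e-15 and 2.58e-20), and the 11-week level was 4.93 times higher. The 3-week call was lost without 1 Npc1-/- mouse (adjusted p = 0.0698). Its difference varied between ages with an adjusted p of 6.58e-13 by the moderated F test.

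Macrophage markers were also higher in Npc1-/- liver at 11 weeks. All 11 markers of the list were above the median of all values, and their mean was 10.02 in Npc1-/- liver at 11 weeks (9.95 to 10.08 over 4 mice), against 6.87 in Npc1+/+ liver (6.78 to 6.96). The 6 markers of resident Kupffer cells averaged 6.26 (5.99 to 6.56) in Npc1-/- liver, against 7.65 (7.63 to 7.67). The 10 hepatocyte markers averaged 12.98 (12.88 to 13.05) in Npc1-/- liver, against 13.07 (12.97 to 13.18). Among them none was higher and 2 were lower by limma, where 18.8% of all genes were higher and 20.5% lower. The 12 serpins that fell at this age include Serpina4-ps1 and Serpinb1a, whose calls support nothing about the members. A list of 9 neutrophil genes averaged 5.69 (5.33 to 6.12) in Npc1-/- liver, against 4.89 (4.83 to 4.92). The part of these cell types in the serpin differences was not tested.

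The other clade B genes were low. Serpinb8, an intracellular inhibitor of furin, rose at 3 and 5 weeks, with 5.89, 5.77, 6.18 and 6.43 in Npc1-/- liver at 3 weeks, against 5.40, 5.20, 5.33 and 5.57 in Npc1+/+ liver. At 5 weeks it was at 6.64, 6.44, 6.09 and 6.27, against 5.11, 5.73, 5.75 and 5.18. The groups did not overlap at either age (differences 0.69 and 0.92, SE 0.16, adjusted p = 0.00125 and 2.21e-05), and at 7 to 11 weeks the difference was 0.21 to 0.26. Serpinb1a, an inhibitor of neutrophil elastase, proteinase 3 and cathepsin G, was lower at 7, 9 and 11 weeks, with differences of -1.07, -1.05 and -1.13 (SE 0.21). Every group mean lay below the median of all values, so these sizes may be lower bounds, and they are given as a description because the gene passed the filter through 4 Npc1+/+ mice alone. At 11 weeks it was at 4.49, 4.21, 4.30 and 4.22 in Npc1-/- mice, against 5.93, 5.26, 4.41 and 6.13 in Npc1+/+ mice, which overlap through 1 Npc1+/+ mouse. A pair of untested genes below the median, chosen after their values were seen, were Serpinb6b, at 5.19 in Npc1-/- liver and 4.50 in Npc1+/+ liver at 11 weeks, and Serpina12, or vaspin, at 4.48 and 5.21. Serpinb6b is a paralog of Serpinb6a and their probes may share sequence. How much of the Serpinb6b signal comes from Serpinb6a is unknown.

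Members also moved with age in Npc1+/+ liver alone. Between 11 weeks and 1 week, 5 of the 18 tested members rose and 7 fell, where 44.8% of all genes passed (22.3% higher, 22.5% lower). Serpina4-ps1 was 4.01 higher at 11 weeks than at 1 week (SE 0.58, which may be a lower bound since its 1-week values lay below the median of all values), Serpina6 1.10 (SE 0.37), Serpinb8 1.03 (SE 0.16), Serpina10 0.74 (SE 0.11) and Serping1 0.36 (SE 0.07). Serpina4-ps1 passed the filter through Npc1+/+ mice older than 1 week alone, so its call here supports nothing about the members. Serpina7 was lower at 11 weeks (-1.15, SE 0.29), as were Serpinh1 (-0.64, SE 0.13), Serpinb6a (-0.54, SE 0.12), Serpinf2 (-0.47, SE 0.09), Serpina3n (-0.45, SE 0.08), Serpind1 (-0.43, SE 0.09) and Serpina11 (-0.35, SE 0.12). Adjusted p ran up to 0.0169 among these 12 by limma, and the calls of Serpina6 and Serpina11 were lost on leaving out single mice. The Serpina11 call was also lost with median centring (adjusted p = 0.0674) and without the 1-week pair numbered apart (adjusted p = 0.115).

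In the 12-week set, Npc1 was lowered in adult Npc1+/+ liver with the Npc1 oligo, which was set against the control oligo. Of 18 members tested (the 17 and Serpinb9; Serpina4-ps1 passed the filter through mice without the Npc1 oligo alone, so its calls support nothing about the members), 2 rose and 5 fell without NAC, where 22.6% of all genes passed (14.7% higher, 7.88% lower), and 2 rose and 9 fell with NAC, where 25.7% passed (11% higher, 14.7% lower). The median difference of the members was -0.04 without NAC and -0.16 with NAC, against 0.02 and -0.01 over all genes. In these comparisons the 10 hepatocyte markers gave none higher and 1 lower without NAC (median difference -0.01), and none higher and 6 lower with NAC (median -0.19). Their mean level was 12.94 (12.78 to 12.99) with the Npc1 oligo and NAC, against 13.17 (13.09 to 13.24) with the control oligo and NAC. Of 19 acute-phase genes, 3 were higher and none lower with the Npc1 oligo than with the control oligo in mice without NAC (median 0.03). In mice given NAC, 1 was higher and 9 lower with the Npc1 oligo (median -0.35). The part of either list in the serpin differences was not tested. The 4 groups are shared between these comparisons and the NAC comparisons below, so their values are given side by side.

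Serpina6 fell with the Npc1 oligo. It was at 10.71, 10.45, 10.78, 11.09 and 10.37 with the Npc1 oligo, against 12.18, 11.66, 12.08, 11.65 and 11.93 with the control oligo, and at 10.24, 10.57, 10.80, 9.94 and 10.55 with the Npc1 oligo and NAC, against 11.46, 11.74, 11.45, 11.32 and 11.40 with the control oligo and NAC. All Npc1 oligo mice lay below all control oligo mice in both pairs. The differences were -1.22 (SE 0.13, adjusted p = 7.69e-08) and -1.05 (SE 0.13, adjusted p = 5.11e-07). Of the mice given an oligo, the control oligo group itself had a lower mean of Serpina6 than untreated mice, which were at 12.52, 12.16, 12.42, 12.33 and 12.18. These groups overlap (difference -0.42, SE 0.13, adjusted p = 0.018), and the call was lost on leaving out any of 3 single mice (adjusted p up to 0.0651) and with all 78 arrays in 1 fit (adjusted p = 0.274).

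Serpina7 fell with the Npc1 oligo, and with the control oligo it rose with NAC. It was at 8.39, 8.31, 8.47, 8.69 and 8.93 with the Npc1 oligo, against 10.01, 9.01, 10.11, 8.82 and 9.20 with the control oligo, which overlap (difference -0.88, SE 0.23, adjusted p = 0.0066). With NAC it was at 8.55, 8.71, 9.31, 9.70 and 9.41 with the Npc1 oligo, against 10.72, 11.57, 11.11, 11.21 and 10.77 with the control oligo, which do not overlap (-1.94, SE 0.23, adjusted p = 2.26e-07). The control oligo group with NAC had the highest mean of the 18 groups. It rose with NAC by 1.65 with the control oligo (SE 0.23, adjusted p = 5.01e-05), and the NAC difference with the Npc1 oligo was 0.58 (SE 0.23, adjusted p = 0.137). The test of the difference between these NAC effects gave -1.06 (SE 0.33, adjusted p = 0.0562), which did not pass.

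Serpinb6a rose with the Npc1 oligo as well. Its values were 8.71, 8.55, 8.33, 8.54 and 8.88, against 8.18, 7.75, 8.01, 7.90 and 7.88 with the control oligo (difference 0.66, SE 0.11, adjusted p = 4.66e-05). With NAC they were 8.54, 8.55, 8.18, 8.82 and 8.55 with the Npc1 oligo, against 7.99, 8.06, 7.94, 7.81 and 8.14 with the control oligo (0.54, SE 0.11, adjusted p = 0.000352). The groups did not overlap in either pair. Macrophage markers averaged 9.02 with the Npc1 oligo (8.56 to 9.46), against 7.67 with the control oligo (7.50 to 7.78), and 9.00 (7.85 to 9.51) against 7.75 (7.47 to 7.93) with NAC. With the control oligo against untreated mice, 7 of the 11 markers were higher and none lower (median difference 0.61). There 5.05% of all genes were higher and 21.3% lower, and Serpinb6a did not pass. The part of these markers in the Serpinb6a differences was not tested.

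Serpina4-ps1 was low with the Npc1 oligo and uneven with the control oligo. It was at 4.51, 4.58, 4.54, 4.66 and 4.72 with the Npc1 oligo, against 4.53, 7.26, 5.07, 7.47 and 7.03 with the control oligo, and at 4.12, 4.50, 4.50, 4.27 and 4.67 against 7.50, 5.43, 7.42, 6.14 and 6.21 with NAC. The groups overlap without NAC, through 1 control oligo mouse, and not with it. The differences were -1.67 and -2.13 (SE 0.41), which again may be lower bounds on the size. They are given as a description because the gene passed the filter through mice without the Npc1 oligo alone. Untreated mice were at 4.56, 5.37, 4.29, 4.96 and 5.81, which overlap the control oligo mice. The control oligo mean was higher (difference 1.27, SE 0.41, which may be a lower bound on the size), and this too is a description. Its call (adjusted p = 0.0203 by limma) was lost on leaving out any of 5 single mice (adjusted p up to 0.084). Untreated Npc1+/+ mice of 12 weeks averaged 5.00 and Npc1+/+ mice of 11 weeks in the age series 8.56; these are different lines, and the sets were not tested against each other.

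Of the remaining members, Serpina11 and Serpinf2 fell with the Npc1 oligo both without NAC (-0.32, SE 0.10, adjusted p = 0.0137, and -0.21, SE 0.06, adjusted p = 0.0103) and with NAC (-0.42, SE 0.10, adjusted p = 0.00118, and -0.29, SE 0.06, adjusted p = 0.00045). For both genes the oligo groups did not overlap in either pair. Serpina1c passed the threshold with NAC, at 11.22, 11.12, 11.19, 11.14 and 10.95 with the Npc1 oligo, against 12.12, 11.73, 11.90, 11.59 and 12.42 with the control oligo (-0.83, SE 0.15, adjusted p = 0.0001). Without NAC its difference was -0.24 (adjusted p = 0.264), and the difference between the 2 oligo effects was -0.59 (SE 0.21, adjusted p = 0.102). Serping1, which fell at every age in Npc1-/- liver, differed by -0.0048 without NAC and by -0.19 with NAC (adjusted p = 0.0242, lost on leaving out any of 6 single mice), and Serpinf1 by -0.01 and 0.07 with no adjusted p under 0.05. Among mice given NAC, Serpinb9, an inhibitor of granzyme B, was lower with the Npc1 oligo than with the control oligo (-0.37, adjusted p = 0.03), and Serpinb8 was higher (0.32, adjusted p = 0.043). Among mice without NAC, Serpina3n was higher with the Npc1 oligo (0.21, adjusted p = 0.0418). Each of these 3 calls was lost on leaving out single mice (adjusted p up to 0.127, 0.134 and 0.189).

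**Figure D4:**
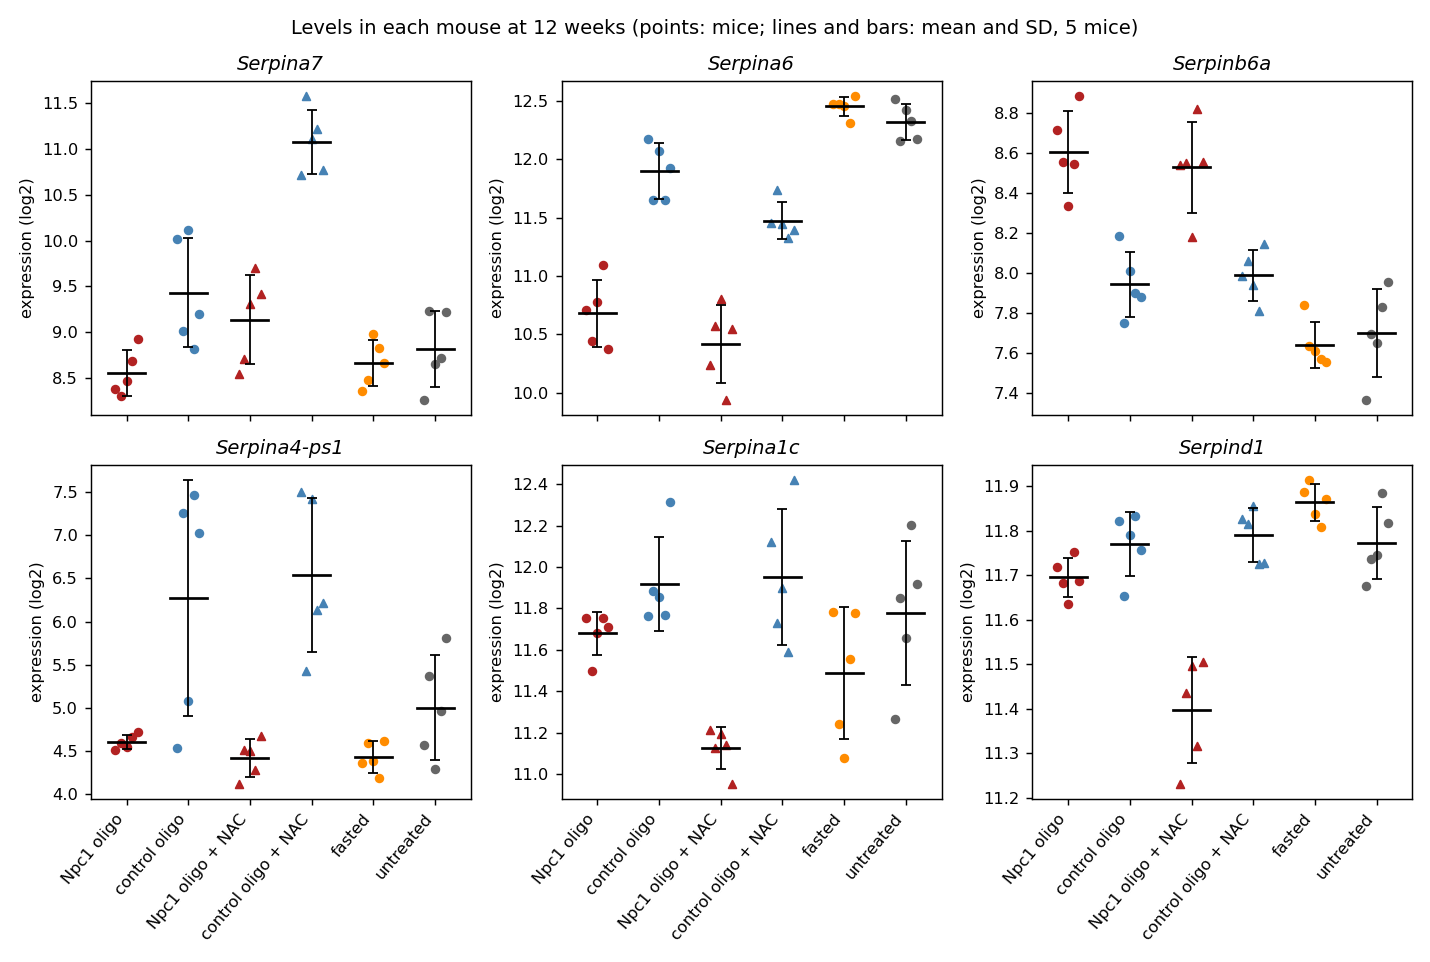
Log2 level in each mouse of the 12-week set (points, triangles with NAC) with the mean and SD of 5 mice (black) for 6 Serpin genes. Serpina6 is lower and Serpinb6a higher in both Npc1 oligo groups, and Serpina7 is highest with the control oligo and NAC.

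Serpind1 had a larger oligo difference with NAC than without it. It was at 11.72, 11.68, 11.64, 11.75 and 11.69 with the Npc1 oligo, against 11.82, 11.65, 11.79, 11.83 and 11.76 with the control oligo. With NAC it was at 11.23, 11.43, 11.50, 11.32 and 11.50 with the Npc1 oligo, against 11.83, 11.81, 11.86, 11.72 and 11.73 with the control oligo. The Npc1 oligo group with NAC lay below the other 3 groups without overlap. The oligo difference was -0.08 (SE 0.06, adjusted p = 0.353) without NAC and -0.39 (SE 0.06, adjusted p = 3.98e-06) with it, and the interaction was -0.32 (SE 0.08, adjusted p = 0.0177), where 4.83% of all genes passed (1.15% higher, 3.68% lower). It was the single member called in the interaction, and the call was lost under quantile normalization (adjusted p = 0.0841) and with all 78 arrays in 1 fit (adjusted p = 0.0522).

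With NAC against no NAC, 4 members rose and 1 fell with the control oligo, where 8.5% of all genes passed (6.09% higher, 2.41% lower). Besides Serpina7, Serpina10 rose, at 9.49, 10.05, 9.88, 9.60 and 9.74 with NAC, against 9.13, 8.99, 9.41, 9.34 and 9.08 without it (difference 0.56, SE 0.12, adjusted p = 0.00261), with no overlap. The calls of Serpina3n (0.26), Serping1 (0.20) and Serpina6 (-0.42) had adjusted p of 0.0244, 0.0484 and 0.042 and were lost on leaving out single mice. The Serpina6 call was also lost with no filter, median centring, an intensity trend and all 78 arrays in 1 fit (adjusted p up to 0.351), and the Serping1 call with no filter (0.0803) and the replicate block (0.0559). With the Npc1 oligo 1 member rose and 3 fell with NAC, where 7.15% of all genes passed (2.88% higher, 4.27% lower). The 10 hepatocyte markers gave none higher and 3 lower in this comparison (median difference -0.15), and their part was not tested. The members called were Serpina10 (0.37, adjusted p = 0.0466), Serpina1c (-0.55, adjusted p = 0.0206), Serpind1 (-0.30, adjusted p = 0.000893) and Serpine3 (-0.26, adjusted p = 0.0411). Of these, Serpind1 kept its call whichever single mouse was left out, and the other 3 did not.

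Fasting overnight moved no member past the threshold by limma, against 0.529% of all genes (0.21% higher, 0.319% lower). At an unadjusted p under 0.05 there was 1 of 18, Serpina11, at 9.75, 9.78, 9.92, 9.81 and 9.65 in fasted mice, against 9.58, 10.25, 9.85, 9.995 and 10.32 in untreated mice (difference -0.22, SE 0.10, unadjusted p = 0.029, adjusted p = 0.462). The control oligo against untreated mice gave 2 members higher and 2 lower, where 26.3% of all genes passed (5.05% higher, 21.3% lower). The 2 higher include Serpina4-ps1, which passed the filter through mice without the Npc1 oligo alone, so its call supports nothing about the members. Besides Serpina6 and Serpina4-ps1, Serpina3n rose, at 12.32, 12.20, 12.24, 12.26 and 12.31 with the control oligo against 11.99, 12.08, 11.96, 11.98 and 12.13 in untreated mice (0.24, SE 0.07, adjusted p = 0.0175), and Serpinb8 fell (-0.37, SE 0.12, adjusted p = 0.0202, lost on leaving out either of 2 single mice).

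The proteases and partners that serpins meet were taken from a list of 28 genes on the array, 26 of them tested in the age series. At 11 weeks 5 rose and 16 fell in Npc1-/- liver, where 18.8% of all genes were higher and 20.5% lower, and their median difference was -0.38. The share that rose was near that of all genes, and these 5 genes were cysteine or serine proteases of lysosomes, leukocytes and the cell surface: Ctss, cathepsin S, at 12.11 in Npc1-/- liver against 8.49 in Npc1+/+ liver (difference 3.62, SE 0.14), Ctsl, cathepsin L (1.21, SE 0.08), Plau, urokinase (1.13, SE 0.11), and Ctsg, cathepsin G (0.42, SE 0.12), along with Elane, neutrophil elastase (0.30, SE 0.10). Ctss is also in the macrophage list and Elane in the neutrophil list. The genes that fell most were plasma proteases made in the liver and a cofactor: F11, factor XI (-1.03, SE 0.13), Hgfac, the activator of hepatocyte growth factor (-0.98, SE 0.10), F7, factor VII (-0.82, SE 0.10), and Proz, protein Z, the partner of Serpina10 (-0.72, SE 0.09). The largest adjusted p among these 9 genes was 0.0186 by limma. Ctsg and Elane were below the median of all values in both genotypes. With the oligo, 24 of the list were tested, and 3 rose and 5 fell without NAC (all genes: 14.7% higher, 7.88% lower) and 5 rose and 10 fell with it (all genes: 11% higher, 14.7% lower).

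Agt, angiotensinogen, a serpin by fold that carries another symbol and is no member, differed by -0.04 at 11 weeks (SE 0.09, adjusted p = 0.739). A list of 19 acute-phase genes gave 5 higher and 5 lower at 11 weeks, with a median difference of -0.16, where 18.8% of all genes were higher and 20.5% lower. For NAC with the control oligo it gave 11 higher and 1 lower, with a median of 0.42, where 6.09% of all genes were higher and 2.41% lower. Their mean level was 11.34 (11.11 to 11.55) with the control oligo and NAC, against 10.27 (9.92 to 10.78) with the control oligo alone. In that comparison Serpina7, Serpina10, Serpina3n and Serping1 rose and Serpina6 fell. The part of the acute-phase genes in those differences was not tested.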

How the data were processed

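Liver RNA of 78 mice was measured on 1 array each, and the table the authors deposited holds 35556 probe sets in log2 units. The submitters' processing notes list RMA and Partek 6.5 with neither role nor order; how the arrays were scaled to each other is not given in the sources used here. Values lie between 1.79 and 14.6 (array medians between 5.35 and 5.65) and carry no detection calls. The number of animals sets the precision.

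Probe sets were named through the platform's probe table: 21789 had 1 symbol, 1621 several and 12146 none listed. A gene was tested where 4 or more arrays of the fit exceeded the overall median, 12638 in the age series (48 arrays) and 11900 in the 12-week set (30 arrays). limma 3.58.1 in R 4.3.3 (lmFit, 1 mean per group, eBayes) gave two-sided tests with Benjamini-Hochberg adjustment over all genes tested, and the procedure was tested on simulated data. The tests' p-values measure the spread between mice, pooled for each gene over the groups of the fit. Every member above the median and every member past the threshold is named with values, and of each further list up to 4 genes per direction with the largest change past the threshold at 11 weeks, plus Elane, chosen after its values were seen. All 48 symbols matched RefSeq. The members and lists were chosen with earlier results of these data known, including the array pair with pancreas signal. Alternatives were no filter or a stricter one (60th percentile, 6.18), quantile normalization, median centring, the mean of probe sets, an intensity trend with robust prior, all arrays in 1 fit, the replicate number as a block, and arrays left out.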

Additional observations from a re-analysis of the deposited data

Results flagged for a closer look

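Within a group, a mouse was set apart when its gap to the nearest other mouse exceeded Dixon's 95% critical value for the group's range. This held for 31 of 342 member and group pairs, where chance gives about 1 in 20. Each lay above the rest of its group unless marked as below. In the age series they were at 12.31 for Serpina3n, 8.57 (below) for Serpina10, 12.24 (below) for Serpinf2 and 7.47 for Serpina1d in 1-week Npc1-/- liver, and at 10.77 for Serpina11 and 6.84 (below) for Serpinh1 in 1-week Npc1+/+ liver. The low Serpina10 and Serpinf2 values belong to the Npc1-/- mouse with muscle signal. At 3 weeks they were at 5.69 (below) for Serpine3 in Npc1-/- liver and at 6.95 (below) for Serpina1d in Npc1+/+ liver (a mouse with pancreas signal). At 5 weeks they were at 9.22 for Serpina10 in Npc1-/- liver and at 10.09 for Serpina11 and 6.20 (below) for Serpinh1 in Npc1+/+ liver. At 7 weeks 3 values in Npc1+/+ liver stood apart, 11.91 (below) for Serping1, 9.19 for Serpina10 and 5.49 (below) for Serpinb8. At 9 weeks 3 values in Npc1-/- liver did, 12.00 for Serpinc1, 9.17 (below) for Serpina11 and 6.41 (below) for Serpina1d, and at 11 weeks 1 in Npc1+/+ liver, 5.68 (below) for Serpine3.

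In the 12-week set, mice with the Npc1 oligo stood apart at 11.50 (below) for Serpina1c, 9.51 for Serpina10, 6.09 for Serpine3 and 4.68 for Serpinb1a, and with the control oligo at 12.08 (below) for Serping1, 12.31 for Serpina1c and 10.35 for Serpina11. With the Npc1 oligo and NAC the values were 10.16 for Serpina10 and 6.63 for Serpinb8, with the control oligo and NAC 12.19 for Serpinc1 and 10.58 for Serpina11, and in fasted mice 12.20 for Serpina3n and 7.84 for Serpinb6a.

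The genotype difference varied between ages by limma's moderated F test in 15 members, Serpina4-ps1 and Serpinb1a among them, which passed the filter through Npc1+/+ mice alone. The adjusted p was 6.58e-13 for Serpinb6a, 1.08e-05 for Serping1, 1.5e-05 for Serpinf1, 8.91e-05 for Serpina4-ps1, 0.000164 for Serpina10, 0.000233 for Serpina1c and 0.000575 for Serpina11. It was 0.00258 for Serpind1, 0.00521 for Serpinc1, 0.00867 for Serpinb8, 0.0145 for Serpinb1a, 0.0195 for Serpina6, 0.0231 for Serpinf2, 0.0285 for Serpina7 and 0.0294 for Serpina1d. The oligo difference with NAC minus that without it was -0.32 for Serpind1 and passed the test.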

How the results depend on the processing

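No called member difference reversed under the alternatives run. A reversal was possible only with quantile normalization, median centring or arrays left out, since the other settings leave a member's difference unchanged. Of 2226 recomputed values of 100 called pairs of member and comparison, 126 lost the call. Of the pairs, 76 kept the call whichever single mouse was left out. The number of members called moved by more than 1.5 times in these cases. At 1 week, with 1 call, it was 2 with no filter, the stricter filter, quantile normalization, the mean of probe sets and the replicate block, 3 with all 78 arrays in 1 fit, and 0 without the pair of Npc1+/+ mice numbered apart. At 9 weeks, with 8 calls, it was 13 with no filter. With no filter all 48 members are tested instead of 18, in this and every other comparison, so those counts cover more genes. For NAC the number called was 3 against 5 with the control oligo and 2 against 4 with the Npc1 oligo, both with no filter. For the interaction, with 1 call, it was 2 with the stricter filter and 0 with quantile normalization or all arrays in 1 fit. For the control oligo against untreated mice, with 4 calls, it was 7 with quantile normalization and 2 with all arrays. The cause was not tested.

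Leaving out single mice, the number called ranged from 1 to 3 at 1 week, 5 to 6 at 3 weeks, 3 to 7 at 5 weeks, 8 to 10 at 7 weeks, 6 to 9 at 9 weeks, 12 to 14 at 11 weeks, 12 to 14 for the mean over ages, 13 to 15 for the variation between ages and 11 to 13 for age in Npc1+/+ liver. It ranged from 6 to 7 and 8 to 11 for the Npc1 oligo without and with NAC, 2 to 4 and 1 to 4 for NAC with the control and the Npc1 oligo, 1 to 3 for the interaction, 0 to 0 for fasting, and 3 to 6 for the control oligo against untreated mice. Single mice moved a count by more than 1.5 times in 5 comparisons. At 1 week it was 2 without Npc1-/- mouse 2 or Npc1+/+ mouse 2 and 3 without Npc1+/+ mouse 1, and at 5 weeks it was 3 without Npc1-/- mouse 3, Npc1+/+ mouse 3 or Npc1+/+ mouse 4. For NAC with the control oligo it was 3 without control oligo mouse 1, 2 or 5 or control oligo and NAC mouse 1 or 2, and 2 without mouse 5 of the NAC group. For NAC with the Npc1 oligo it was 2 without Npc1 oligo mouse 1 or 5 or Npc1 oligo and NAC mouse 4 or 5, and 1 without Npc1 oligo mouse 4. The interaction count was 2 without control oligo mouse 1, 3 or 5 and 3 without Npc1 oligo and NAC mouse 4. The Npc1 difference ranged from -1.37 to -1.33 over the ages and from -3.04 to -2.89 with the oligo. Correlations between the deviations of same-numbered mice ran from -0.328 to 0.286, with no comparison above 0.1 in every pair. For the control oligo against untreated mice, 4 of 5 pairs correlated best with their own number, though at most at 0.213. The numbers were not taken to pair the mice, and of the counts above, the replicate block moved that at 1 week by over 1.5 times and no other.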
